A study of Homo sapiens with 6 samples.

Results

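Drug transporters and detoxification enzymes were examined in Ishikawa H cells depleted of MTDH (metadherin), a protein linked to resistance against chemotherapy in several cancers. The 93 genes were chosen by symbol: ABC transporters of families A to G, glutathione transferases, UDP-glucuronosyltransferases, sulfotransferases, cytochromes P450 of families 1 to 4 and aldehyde dehydrogenases. They were 93 of the 14232 genes that could be tested. Genes on chromosomes 8 and 13 were left out, as was ALDH1L2 by name, and 1 of 94 matching symbols was lost in this way. The classes held 38 ABC transporters, 20 cytochromes P450, 16 aldehyde dehydrogenases, 12 glutathione transferases, 6 sulfotransferases and 1 UDP-glucuronosyltransferase. CYP1B1-AS1, an antisense RNA at CYP1B1 that encodes no enzyme, matched the symbol pattern and is counted with the cytochromes P450.

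The study compared 3 arrays of cells with a stable short hairpin RNA (shRNA) against MTDH with 3 arrays of control cells, which the labels describe only as control. Ishikawa H is a cell line of a well differentiated, grade 1 endometrioid adenocarcinoma, and all samples carry the p53 mutation G186T according to the labels. The labels name no drug other than the puromycin used for selection. According to the labels of these samples, the lines were grown up from clones picked under puromycin and checked by immunoblot for the targeted protein, and whether the 3 arrays of a group stem from 1 clone is not stated. If they do, the p-values measure only the spread within that clone, and the clone and the shRNA cannot be told apart.

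Detoxification runs in steps. Cytochromes P450 oxidise drugs, steroids and pollutants, and aldehyde dehydrogenases clear the reactive aldehydes that arise. Transferases then attach glutathione, sulfate or glucuronic acid, and ABC transporters pump the parent drug or its conjugate out of the cell at the cost of ATP. In endometrium the same enzymes handle estrogens: CYP1B1 makes catechol estrogens, and the sulfotransferase SULT1E1 inactivates estradiol. Transcription of many of these genes is under the control of the receptor AHR with its partner ARNT, which binds the core letters GCGTG, and of the factor NRF2, which binds antioxidant response elements.

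The promoters of CYP1A1, GSTP1 and ABCB1 are shown as examples of windows that hold the letters marked below. Whether the marked letters control these genes was not tested, and elements outside the windows are not shown. The sequences are RefSeq windows of assembly GRCh38.p14, from 250 bases before to 50 bases after a transcript start, written along the gene. In CYP1A1 (chr15:74725479-74725778, minus strand) the capitals mark the GCGTG core. In GSTP1 (chr11:67583562-67583861, plus strand) they mark TGACNNNGC, the core of an antioxidant response element. In ABCB1 (chr7:87600835-87601134, minus strand, the downstream of 2 listed starts) they mark CCAAT and its reverse complement ATTGG.
CYP1A1: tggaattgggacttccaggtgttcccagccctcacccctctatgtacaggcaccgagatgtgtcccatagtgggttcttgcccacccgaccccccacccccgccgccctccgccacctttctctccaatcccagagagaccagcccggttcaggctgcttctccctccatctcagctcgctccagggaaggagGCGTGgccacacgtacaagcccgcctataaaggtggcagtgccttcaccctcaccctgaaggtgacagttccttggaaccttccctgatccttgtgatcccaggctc
GSTP1: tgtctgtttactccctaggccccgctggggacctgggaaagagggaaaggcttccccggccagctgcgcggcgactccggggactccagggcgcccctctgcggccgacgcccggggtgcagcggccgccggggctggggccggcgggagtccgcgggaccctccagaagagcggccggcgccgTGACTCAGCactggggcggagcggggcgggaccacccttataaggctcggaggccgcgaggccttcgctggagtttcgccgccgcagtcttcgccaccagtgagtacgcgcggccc
ABCB1: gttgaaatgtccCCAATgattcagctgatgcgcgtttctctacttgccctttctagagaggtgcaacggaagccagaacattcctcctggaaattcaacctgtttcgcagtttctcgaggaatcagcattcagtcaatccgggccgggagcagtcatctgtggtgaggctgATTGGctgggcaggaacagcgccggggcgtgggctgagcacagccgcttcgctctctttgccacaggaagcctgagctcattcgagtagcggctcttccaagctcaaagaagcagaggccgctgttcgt

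The same windows were searched on both strands for all genes with an entry, which were 77 of the 93 with 102 windows. GCGTG was found in 38.2% of the 102 windows and in 36.5% of all 35116 windows of this length. TGACNNNGC was found in 16.7% and 13.3%, and CCAAT in 30.4% and 34.6%, in the same order. The matches are letters only and say nothing about binding in these cells.

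Each array gave 1 log2 expression value per transcript cluster, the set of probes that stands for 1 transcribed locus. The median log2 value of an array over all genes lay between 4.59 and 4.86, and the lower quartile between 3.71 and 4.06. The number of arrays limits the precision, and the brightness of a probe set is not a measure of transcript number that can be set against another gene. MTDH itself read 5.77, 5.89 and 5.84 in the knockdown arrays and 6.89, 7.04 and 6.63 in the control arrays, with no overlap (log2 fold change -1.02 ± 0.17, SE, limma adjusted p = 0.029). That call was lost when control replicate 1 or any 1 knockdown array was left out, with adjusted p-values up to 0.16, when all rows of the table were tested (0.0997), after centring each array on its median (0.0959) and under limma's treat, which asked for a fold above 1.5 (1). All 5 epithelial markers listed (KRT8, KRT18, KRT19, EPCAM and CDH1) lay above the median of every array. None of the blood cell markers PTPRC, CD3E and CD14 or of the endothelial markers PECAM1, VWF and CDH5 did so on all 6, whereas 2 of 3 fibroblast and smooth muscle markers measured (COL1A1 and DES) and 1 of 3 hepatocyte markers (APOA1) did. No marker of the 5 cell types listed had an adjusted p under 0.05. Among the epithelial markers KRT19 and KRT8 read lower in the knockdown arrays with separate groups. Their log2 fold changes were -0.87 (limma adjusted p = 0.084) and -0.55 (limma adjusted p = 0.22). CDH1 read higher with separate groups, at 0.28, and KRT18 and EPCAM had -0.17 and 0.36 with overlapping groups. KRT18 and EPCAM had -0.10 and 0.17 without control replicate 3.

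Control replicate 3 stood apart. Its Pearson correlations with the other arrays across genes were 0.900 to 0.955, against 0.959 to 0.980 among the other 5. Of the 93 genes, 71 had their highest or their lowest value on this array, 49 and 22 in that order. Over all genes it held an extreme value for 68.8%. Bright genes read low on it and dim genes high, and the size of this difference changed at a point in the table, whose rows run in chromosome order. The break lay after row 9340 of 22011, within chromosome 8, so that 45 of the 93 genes, on chromosomes 1 to 7, lay before it and 48, on chromosomes 9 to 22, after it. Over all genes with a mean log2 value above 6, control replicate 3 differed from the other controls by a median of -0.62 before the break and -0.18 after it. The break was found by a search over rows with a mean above 6. It is the single split at which control replicate 3 against the other 5 arrays differed most. The 2 medians thus come largely from the values that placed the break and are no test of it. The part of control replicate 3 in single fold changes was not tested. A value without it is given for each named gene whose printed log2 fold change it moved by over 1.5 times.

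None of the 93 genes was called as changed between the groups. At an adjusted p under 0.05 (limma, Benjamini-Hochberg adjustment over all 14232 genes), 0 of 93 passed, where 0.597% of all genes tested did, and the lowest adjusted p was 0.21. Before adjustment 13 genes had a p under 0.05, which is 14% of the 93 and 14.1% of all genes. In 17 of the 93, or 18.3%, the knockdown and control arrays did not overlap, against 20.0% of all genes. The share of genes with separate groups was thus close to the background. Of these 17, 5 read higher and 12 lower in the knockdown arrays, where 8.81% and 11.2% of all genes did. By class, separate groups were found for 7 of the 38 ABC transporters, 5 of the 20 cytochromes P450 and 5 of the 16 aldehyde dehydrogenases, but for none of the glutathione transferases, sulfotransferases or the UDP-glucuronosyltransferase.

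The intervals give the log2 fold changes of the probe signal that the fit did not exclude. For 88 of the 93 genes, or 94.6%, the 95% interval of the log2 fold change lay between -1 and 1, that is, within a 2-fold change in either direction. The same held for 88.0% of all genes. The intervals are for 1 gene at a time and were not adjusted for their number. The 5 exceptions were ABCE1, ABCB10 and ABCD3, whose intervals reached above 1, and CYP1A2 and CYP2F1, whose intervals reached below -1. If the arrays of a group stem from 1 clone, the intervals cover only the spread within it. Of the 93 genes 32, or 34.4%, lay below the lower quartile on all 6 arrays, against 18% of all genes. How far so dim a signal follows the transcript was not tested, so these intervals set no limit on transcript change.

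**Figure D1:**
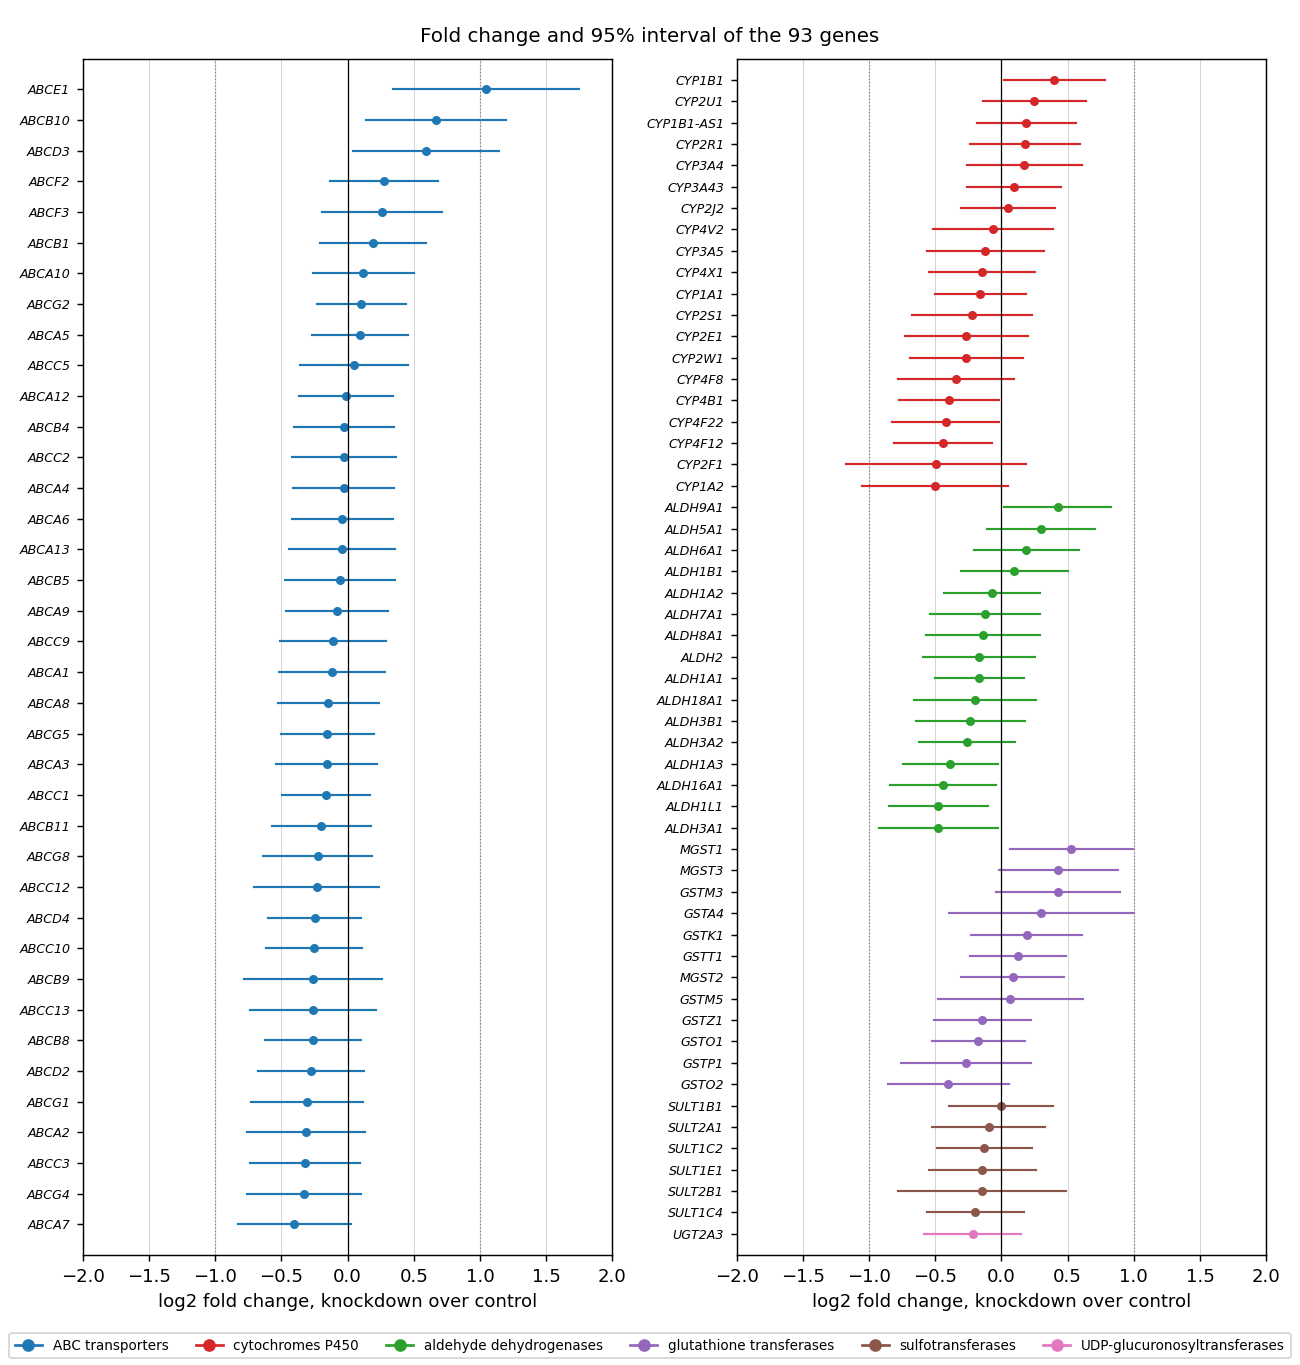
Log2 fold change of knockdown over control (points) with the 95% interval of the limma fit (lines) for all 93 genes, by class. ABCE1 lies farthest from 0 at 1.05, dotted lines mark -1 and 1, and 88 of the 93 intervals lie between them.

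The transporters that pump drugs across the plasma membrane were measured with small differences. ABCB1, which encodes P-glycoprotein, the pump for taxanes and anthracyclines, read 3.25, 3.71 and 3.42 in the knockdown arrays and 3.10, 3.26 and 3.44 in the control arrays. The groups overlapped, and all but knockdown replicate 2 lay in a narrow band. The ABCB1 log2 fold change was 0.19 with an interval from -0.21 to 0.59 (limma adjusted p = 0.61), and 0.07 without knockdown replicate 2.

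ABCG2, the breast cancer resistance protein, read 3.17, 3.15 and 3.16 in the knockdown arrays and 3.04, 3.12 and 3.01 in the control arrays. Here the groups did not overlap, yet the log2 fold change was only 0.11 (interval -0.23 to 0.44). Both ABCB1 and ABCG2 lay below the lower quartile of all 6 arrays. ABCC1, the multidrug resistance protein that exports glutathione conjugates, read 4.50, 4.48 and 4.52 in the knockdown arrays and 4.62, 4.72 and 4.66 in the control arrays, a log2 fold change of -0.16 (interval -0.50 to 0.17). The groups were again separate by a small distance. The value of ABCC1 was 0.01 after quantile normalization within each side of the break, an alternative added once the data had been seen and called normalization within the 2 parts from here on. Its relatives ABCC2 and ABCC3, which export conjugates from liver and gut cells, had log2 fold changes of -0.03 and -0.32 with overlapping groups, and ABCC2 had 0.12 without control replicate 3.

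The largest log2 fold changes among the ABC genes belonged to members that do not pump drugs. ABCE1, a soluble factor that recycles ribosomes after translation ends, read 7.82, 8.003 and 7.41 in the knockdown arrays, against 6.74, 7.41 and 5.95 in the control arrays. Every knockdown array lay above every control array, but knockdown replicate 3 and control replicate 2 were nearly equal. Its mean was 7.75 ± 0.30 in the knockdown arrays and 6.70 ± 0.73 in the control arrays (SD, n = 3 each), a log2 fold change of 1.05 ± 0.32 (SE), or 2.07-fold (limma adjusted p = 0.21). The value was 0.67 without control replicate 3 and 0.70 after normalization within the 2 parts. Without control replicate 2 it was 1.40, and the gene passed the test (limma adjusted p = 0.027).

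ABCB10, a transporter of the mitochondrial inner membrane that takes part in heme synthesis, read 5.52, 5.84 and 5.40 in the knockdown arrays and 5.20, 5.19 and 4.37 in the control arrays. Control replicate 3 lay far below the other 5 arrays. The log2 fold change of ABCB10 was 0.67 with all arrays (limma adjusted p = 0.27) and 0.40 without control replicate 3. ABCD3, which brings fatty acids into peroxisomes, read 6.97, 7.26 and 6.79 in the knockdown arrays and 6.41, 6.93 and 5.92 in the control arrays. These groups overlapped through control replicate 2, and the log2 fold change of 0.59 (limma adjusted p = 0.33) was 0.34 without control replicate 3 and 0.26 after normalization within the 2 parts. ABCF2, a soluble ABC protein without a membrane domain, had 0.28, which became 0.16 and 0.09 under the same 2 changes.

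At the other end stood ABCA7, a lipid transporter, at 4.89, 4.48 and 4.75 in the knockdown arrays and 5.00, 4.91 and 5.42 in the control arrays. The groups were separate by a narrow gap, with control replicate 3 the highest of all 6. The difference was -0.40 on the log2 scale (limma adjusted p = 0.37), and -0.25 without control replicate 3. The mitochondrial transporter ABCB8 and ABCD4, which acts in lysosomal vitamin B12 export, also had separate groups, at -0.26 and -0.25. Over the 38 ABC genes the median was -0.11 and 28 values were negative, or 73.7%, against 60.7% of all genes. After the break, where 73.6% of all genes were negative against 44.1% before it, lie 20 of the 38. Without control replicate 3 the median was -0.003 and 19 values were negative. Of the 38 genes 18, or 47.4%, lay below the lower quartile on all 6 arrays, against 18% of all genes.

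**Figure D2:**
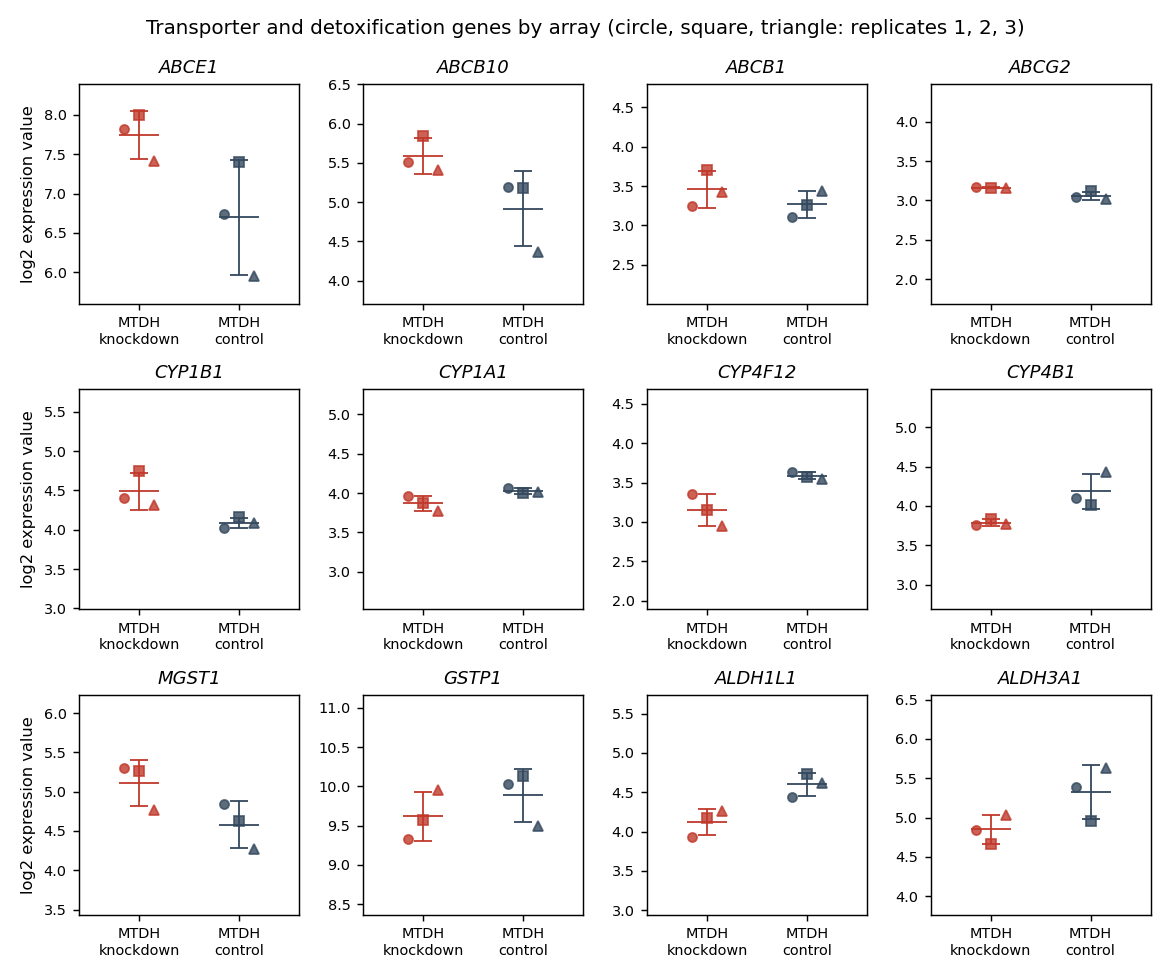
Log2 expression values of 12 genes on each array, knockdown left and control right, with the mean and SD of 3 arrays. Each panel spans the same number of log2 units, and control replicate 3 (triangle) is the lowest array for ABCE1, ABCB10 and MGST1 and the highest for ALDH3A1 and CYP4B1.

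Among the cytochromes P450 the pattern differed from gene to gene within family 1. CYP1B1, which hydroxylates estradiol and activates polycyclic hydrocarbons, read 4.40, 4.75 and 4.31 in the knockdown arrays and 4.02, 4.16 and 4.09 in the control arrays. All knockdown arrays lay above all control arrays, with knockdown replicate 2 the highest. The means were 4.49 ± 0.23 in the knockdown arrays and 4.09 ± 0.07 in the control arrays (SD, n = 3 each), a log2 fold change of 0.40 ± 0.17 (SE, interval 0.02 to 0.78, limma adjusted p = 0.34). It hardly depended on control replicate 3, at 0.40 without it and 0.38 after normalization within the 2 parts, but it was 0.27 without knockdown replicate 2. CYP1B1-AS1 had 0.19 with overlapping groups and lay below the lower quartile on all 6 arrays.

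CYP1A1, the classical AHR target whose promoter is shown above, read 3.96, 3.87 and 3.77 in the knockdown arrays and 4.07, 4 and 4.01 in the control arrays. These groups were separate in the opposite direction to CYP1B1, with a log2 fold change of -0.16 (interval -0.50 to 0.18), which was -0.01 after normalization within the 2 parts. CYP1A2, its neighbour in function, which oxidises caffeine and aromatic amines, read 4.12, 3.80 and 4.19 in the knockdown arrays and 4.55, 4.01 and 5.05 in the control arrays. The groups overlapped, and control replicate 3 was the highest array. Its log2 fold change of -0.50 (limma adjusted p = 0.39) was the lowest of the 93 genes and was -0.25 without control replicate 3.

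All 6 genes of family 4, mostly fatty acid hydroxylases, had a negative log2 fold change, where 60.7% of all genes did. Separate groups were found for 3 of the 6, against 20.0% of all genes. After the break, where 73.6% of all genes were negative against 44.1% before it, lie 3 of the 6. Family 4 was not a class of its own in the plan, and no test was made of it. The median of the 6 was -0.37, and -0.24 without control replicate 3. CYP4F12 read 3.35, 3.15 and 2.94 in the knockdown arrays and 3.64, 3.57 and 3.55 in the control arrays, and the groups did not overlap. The difference was -0.44 on the log2 scale (limma adjusted p = 0.29) and -0.46 without control replicate 3. CYP4F22, which makes ceramides of the skin barrier, and CYP4B1 also had separate groups, at -0.42 and -0.40. Without control replicate 3 their values were -0.28 and -0.27. CYP2F1, a lung cytochrome that activates naphthalene, showed how far 1 array can carry a value: it read 6.93, 6.63 and 7.15 in the knockdown arrays and 7.12, 6.86 and 8.21 in the control arrays. Its log2 fold change was -0.49 with control replicate 3 and -0.09 without it. CYP2U1 and CYP4V2, both fatty acid hydroxylases, had 0.25 and -0.06, and CYP4V2 had -0.21 without control replicate 3. Of the 20 genes 13 had a negative value, or 65%, against 60.7% of all genes, and the median was -0.15. Of these 20 genes 9 lie after the break. Without control replicate 3 the median was -0.07.

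Aldehyde dehydrogenases were the class in which groups were separate most often, in 5 of 16 genes, or 31.2%, where 20.0% of all genes were. No test was made of this difference. ALDH1L1, a folate enzyme that oxidises formyltetrahydrofolate, read 3.94, 4.18 and 4.26 in the knockdown arrays and 4.44, 4.73 and 4.62 in the control arrays. Every knockdown array lay below every control array. The means were 4.12 ± 0.17 in the knockdown arrays and 4.60 ± 0.15 in the control arrays (SD, n = 3 each), a log2 fold change of -0.48 ± 0.17 (SE, limma adjusted p = 0.27), which was -0.46 without control replicate 3 and -0.50 after normalization within the 2 parts.

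ALDH3A1, which oxidises aromatic and lipid aldehydes and inactivates cyclophosphamide derivatives, read 4.85, 4.66 and 5.04 in the knockdown arrays and 5.39, 4.96 and 5.63 in the control arrays. Knockdown replicate 3 lay above control replicate 2, so the groups overlapped. ALDH3A1 had a log2 fold change of -0.48 (limma adjusted p = 0.33), between -0.66 and -0.33 with any 1 array left out. ALDH16A1, a family member that lacks catalytic activity in mammals, had separate groups at -0.44, which was -0.31 without control replicate 3. The retinoic acid makers ALDH1A3 and ALDH1A1 had separate groups too, at -0.39 and -0.17. After normalization within the 2 parts they had -0.22 and -0.02, and ALDH1A1 lay below the lower quartile on all 6 arrays. Their relative ALDH1A2 had -0.07 with overlapping groups, or -0.04 without control replicate 3. ALDH9A1, which acts in carnitine synthesis, was the member that read higher with separate groups: 6.64, 6.52 and 6.55 in the knockdown arrays and 6.01, 6.48 and 5.95 in the control arrays. Control replicate 2 came close to the knockdown arrays, and the log2 fold change of 0.43 (limma adjusted p = 0.34) was 0.10 after normalization within the 2 parts.

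Enzymes of amino acid and fatty aldehyde metabolism completed the class. ALDH18A1, which makes the proline precursor, had -0.20, or -0.41 without control replicate 3, and the fatty aldehyde enzyme ALDH3A2 had -0.26. ALDH7A1, an enzyme of lysine breakdown, read 6.93, 7.12 and 6.81 in the knockdown arrays and 7.13, 7.32 and 6.77 in the control arrays, with overlap and a log2 fold change of -0.12, or -0.27 without control replicate 3. After normalization within the 2 parts ALDH7A1 had -0.47, the lowest adjusted p of the 93 genes under that setting (limma adjusted p = 0.15). In all, 12 of 16 aldehyde dehydrogenases had a negative value, or 75%, against 60.7% of all genes, and 13 had one without control replicate 3. No share over all genes is given for the values without that array. After the break, where 73.6% of all genes were negative against 44.1% before it, lie 11 of the 16.

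Of the 12 glutathione transferases 8 had a positive value, and the median was 0.10. Without control replicate 3 there were 6 positive values and the median was -0.01. MGST1, a membrane-bound transferase and peroxidase, read 5.30, 5.26 and 4.77 in the knockdown arrays and 4.85, 4.63 and 4.27 in the control arrays. Replicate 3 was the lowest array in both groups, and the groups overlapped through knockdown replicate 3 and control replicate 1. The log2 fold change of MGST1 was 0.53 ± 0.21 (SE, limma adjusted p = 0.31), 0.37 without control replicate 3 and 0.68 after normalization within the 2 parts. MGST3, a related membrane enzyme, had 0.43, and the cytosolic GSTM3 had 0.43, or 0.28 and 0.25 without control replicate 3. Both lie on chromosome 1, and after normalization within the 2 parts their values were 0.09 and 0.15.

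GSTP1, which conjugates many anticancer drugs and whose promoter is shown above, read 9.34, 9.57 and 9.95 in the knockdown arrays and 10.03, 10.13 and 9.50 in the control arrays. Control replicate 3 lay among the knockdown arrays, so the groups overlapped. GSTP1 had a log2 fold change of -0.27 (interval -0.76 to 0.22, limma adjusted p = 0.56), and -0.46 without control replicate 3. MGST2, which can form leukotriene C4, had 0.08, and its sign turned when control replicate 3 was left out (-0.05) or after quantile normalization (-0.14). GSTO2, an enzyme that reduces dehydroascorbate, had -0.40 with overlapping groups.

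Sulfotransferases and glucuronosyltransferases were mostly dim. Of the 6 sulfotransferases 4 lay below the lower quartile on all 6 arrays, as did UGT2A3, the sole UDP-glucuronosyltransferase that could be measured by itself. All 6 sulfotransferases had negative values, between -0.20 and -0.003, where 60.7% of all genes did, and no pair of groups was separate. Of these 6 genes 2 lie after the break. Without control replicate 3, 4 of the 6 values were negative. SULT1E1, the estrogen sulfotransferase, read 1.95, 2.19 and 2.27 in the knockdown arrays and 2.19, 2.10 and 2.55 in the control arrays. This lies near the lower end of the scale, so that little can be said of its level, and its log2 fold change was -0.14, or -0.009 without control replicate 3. SULT2B1, which sulfates cholesterol, had -0.15, or 0.23 without control replicate 3, on which it read 5.21 against 4.26 and 3.90 on the other controls. SULT1C4, SULT1C2 and SULT2A1 had -0.20, -0.13 and -0.10, and UGT2A3 had -0.22. Without control replicate 3 SULT1C4 had -0.11 and SULT2A1 had -0.02.

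In 38 further rows a family symbol stood beside other symbols, mostly close paralogs, and such rows were not given to a gene. They included 8 rows with UGT, 12 with CYP and 8 with GST symbols. None of the 38 passed the test when all rows were fitted (limma, lowest adjusted p = 0.21), 3, or 7.89%, had an unadjusted p under 0.05, and 5, or 13.2%, had separate groups. Over all genes tested these shares were 14.1% and 20.0%. The 14.1% comes from the fit of 14232 genes and is not a like measure for the 38 rows. In the fit of all rows 8 of the 93 genes had an unadjusted p under 0.05, against 13 in the fit of genes. The log2 fold changes of the 38 rows ran from -1.15 to 0.57.

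The direction of the small differences varied with brightness and with the place of a row in the table, among these genes and among all genes tested. Their part in the result was not tested. Of the 93 genes 64 had a negative log2 fold change, or 68.8%, against 60.7% of all genes, and the median was -0.14, against -0.08. Before the break 23 of 45 were negative, or 51.1%, and after it 41 of 48, or 85.4%. Over all genes the shares were 44.1% before and 73.6% after the break. Of 7 of the 93 genes with a mean log2 value above 6 before the break, 6 had a positive value, as had most such genes of the series, where 9.73% were negative. After the break it was otherwise: 5 of 6 such genes of the 93 were negative, with a median of -0.23, against 48% of all genes there. After centring each array on its median 52 of the 93 genes were negative and 41 positive. The share over all genes under that setting is not given. With normalization within the 2 parts 57 of the 93 genes were negative. Before the break these were 23, or 51.1%, with a median of -0.01, and after it 34, or 70.8%, with -0.08. All genes tested had shares of 53.7% and 58.5% and medians of -0.03 and -0.04 in the same order. Without control replicate 3 the median over the 93 genes was -0.04. Before and after the break it was then 0.04 and -0.09, against 0.06 and -0.08 over all genes.

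**Figure D3:**
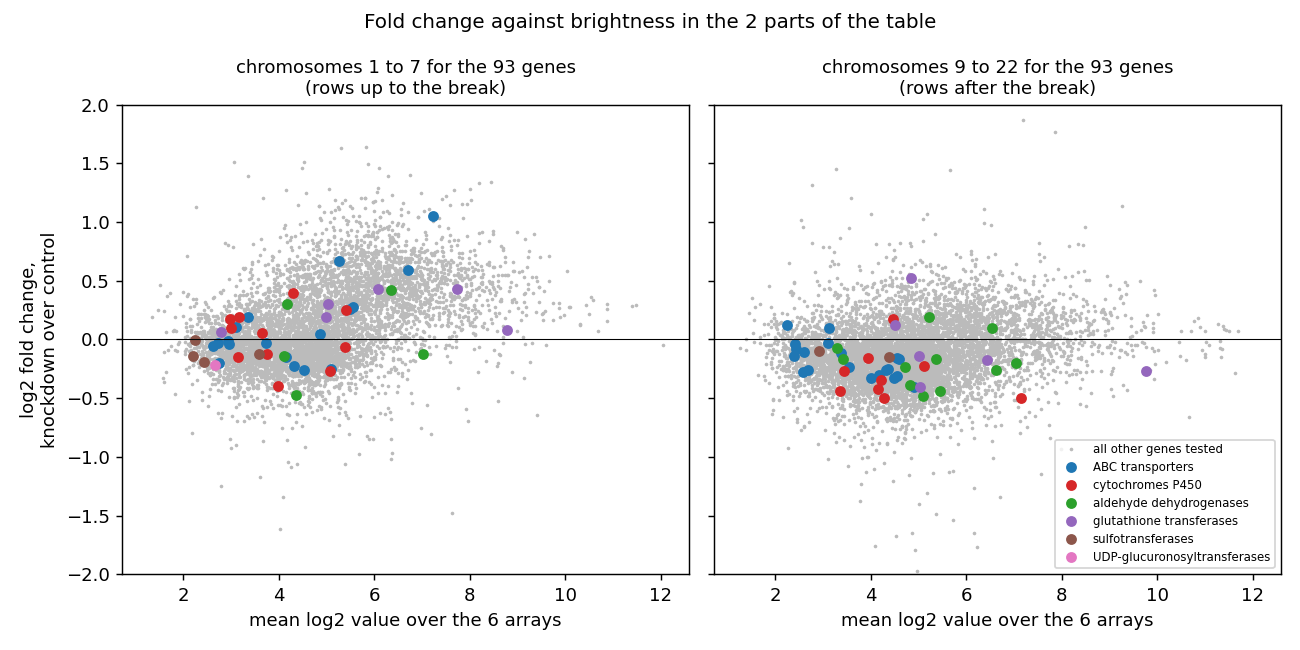
Log2 fold change of knockdown over control against the mean log2 value of the 6 arrays, in rows up to the break (left) and after it (right), with all other genes tested in grey. The vertical axis ends at 2 in either direction, which leaves out 4 genes that are not among the 93. Before the break 6 of the 7 coloured genes above a mean of 6 lie above 0, and the grey points there tilt upwards with brightness.

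**Figure D4:**
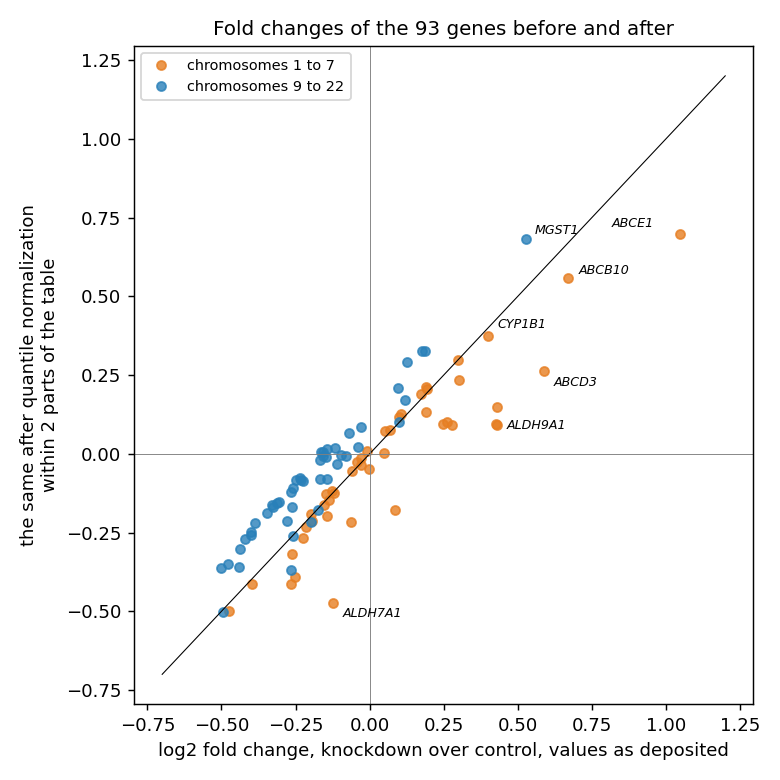
Log2 fold changes of the 93 genes from the values as deposited (horizontal) and after quantile normalization within the 2 parts of the table (vertical), with a line of equal values. ABCE1 moved to 0.70 and ABCD3 to 0.26, while CYP1B1 had 0.40 before and 0.38 after.

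No change was called in other genes of drug handling either. Of 125 listed genes 94 were measured, none passed the test, and 21, or 22.3%, had separate groups, against 20.0% of all genes. Among 25 uptake transporters the largest value was that of SLC47A2, an exchanger that moves organic cations. It read 3.58, 3.37 and 3.45 in the knockdown arrays and 4.26, 4.22 and 3.93 in the control arrays, with separate groups and a log2 fold change of -0.67 (limma adjusted p = 0.13). The organic anion carrier SLCO4C1 followed at 0.41.

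Among 13 receptors and regulators of the pathway the largest value was that of AHR, which read 5.88, 6.07 and 5.64 in the knockdown arrays and 5.08, 5.29 and 4.77 in the control arrays. Every knockdown array lay above every control array. The AHR log2 fold change was 0.82 ± 0.19 (SE, interval 0.40 to 1.25, limma adjusted p = 0.11), between 0.68 and 0.94 with any 1 array left out and 0.66 after normalization within the 2 parts. It passed the test without control replicate 2 (limma adjusted p = 0.049). ARNT, the partner of AHR, had 0.63 with separate groups (limma adjusted p = 0.26), 0.41 without control replicate 3. The AHR target genes named here did not share 1 direction, with 0.40 for CYP1B1, -0.16 for CYP1A1, -0.50 for CYP1A2 and -0.48 for ALDH3A1. CYP1B1 lies before the break, where 44.1% of all genes were negative, and the others after it, where 73.6% were. CYP1A1 had -0.01 after normalization within the 2 parts, and without control replicate 3 CYP1A2 had -0.25 and ALDH3A1 -0.33. The activity of AHR was not tested. NCOA1, a coactivator of nuclear receptors, had 0.68, and 0.43 without control replicate 3.

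In the 19 genes of glutathione synthesis and thiol redox the peroxiredoxins PRDX6 and PRDX1 led with 0.71 and 0.50, both with separate groups, and 0.37 and 0.29 without control replicate 3. GCLC and GCLM, the subunits of the enzyme that limits glutathione synthesis and both targets of NRF2, had 0.30 and 0.27, and 0.08 and -0.002 without control replicate 3. Over the 19 genes 10 had a positive value and the median was 0.006. Among 21 other oxidising and reducing enzymes PON2, a lactonase, had 0.61 and the heme oxygenase HMOX1 had -0.45, or 0.39 and -0.25 without control replicate 3.

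Among 16 further conjugating enzymes and their suppliers TPMT, which methylates thiopurine drugs, had the largest value of the 94 genes. TPMT read 6.13, 6.91 and 6.65 in the knockdown arrays and 5.78, 5.64 and 4.75 in the control arrays. The groups were separate, and control replicate 3 lay well below the other controls. Its log2 fold change was 1.17 ± 0.29 (SE, limma adjusted p = 0.12), 0.85 without control replicate 3 and 0.97 after normalization within the 2 parts. UGP2, which makes UDP-glucose, had 0.53 with overlapping groups, and 0.19 without control replicate 3.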

How the data were processed

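Total RNA of Ishikawa H cells was measured after amplification on Affymetrix human gene arrays (biotin label), 3 per group. The authors deposited log2 expression values made with Partek Genomics Suite. Neither its version nor the settings for background and normalization are stated in labels or methods. Of 22011 rows, 14432 had 1 gene symbol in the platform annotation, 2408 several and 5171 none. The cluster with the highest mean was kept per gene. Only CYP2R1 of the 93 genes had more than 1 cluster.

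Knockdown and control arrays entered a limma fit (limma 3.58.1 under R 4.3.3) of the log2 values as deposited, with Benjamini-Hochberg adjustment over 14232 genes, and tested on simulated data. Replicate numbers were taken from the titles. The 93 genes, the further lists and the tests were chosen with earlier results of these data known. Genes named were MTDH, ABCB1, CYP1B1, in each class the 4 with the largest fold change and the 3 brightest, and the 2 largest of each further list. Others were named after their values were seen: ABCB8, ABCC1, ABCC2, ABCC3, ABCD4, ABCG2, ALDH1A1, ALDH1A2, ALDH1A3, CYP1A1, CYP1B1-AS1, CYP4B1, ARNT, GCLC and GCLM. Gene symbols come from the platform annotation, and chromosomes from RefSeq GRCh38.p14. Alternatives were other summaries, filters, normalizations, priors and tests, a replicate block and leaving out each array.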

Additional observations from a re-analysis of the deposited data

How the results depend on the processing

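The count of 0 changed genes among the 93 held in all alternatives but 2: ABCE1 passed with the replicate number as a block (1 gene, limma adjusted p = 0.031) and without control replicate 2 (range 0 to 1 with any 1 array left out). AHR was likewise the 1 companion gene called under the replicate block (limma adjusted p = 0.029) and without control replicate 2 (range 0 to 1). Same-numbered arrays deviated together with correlations of -0.10, 0.47 and 0.31 across genes. Knockdown replicates 2 and 3 correlated best with the control of the same number, but knockdown replicate 1 did so with control replicate 3. These values do not settle whether the numbers mark pairs. Over all genes 85 changed, against 364 with the replicate block, 19 with all rows tested, 48 after centring on the median and 4 when limma's treat asked for a fold above 1.5. With 1 array left out the count ran from 12 to 233. The cause of these changes was not tested, other than that fewer arrays entered.

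The median over the 93 genes was -0.1375 and became -0.03897 after centring on each array's median. With 1 array left out it ran from -0.1633 to -0.04052, the second without control replicate 3. Signs turned for 5 of the genes named by rule. Of those named after their values were seen, ABCC1 turned with normalization within the 2 parts (0.006), GCLM without control replicate 3 (-0.002), and ABCC2 without control replicate 3 (0.12), after quantile normalization (0.08) and within the 2 parts (0.08). ALDH1A2 turned too, among others without knockdown replicate 3 (0.01) and within the 2 parts (0.07). ALDH7A1 ran from -0.2731 to 0.001213 with 1 array left out, and turned without control replicate 2. CYP4V2 had 0.03475 after centring and ran from -0.2109 to 0.1196, turning without knockdown replicate 3 (0.04995) or control replicate 2. MGST2 had -0.1408 after quantile normalization, -0.1786 after normalization within the 2 parts and -0.2074 when control replicate 3 was also left out, and ran from -0.05457 (without control replicate 3) to 0.1667. SULT2B1 ran from -0.4233 to 0.2292 (without control replicate 3) and had 0.2885 without that array after normalization within the 2 parts. SULT2A1 had 0.00287 after centring and ran from -0.2412 to 0.003125 (without knockdown replicate 2). Leaving out the dimmest 30% of genes left 54 of the 93. Normalization within 2 parts was chosen after seeing the data.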
